A study of Homo sapiens with 2 samples.

Results

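ATP-binding cassette (ABC) proteins were examined in PC-3 cells exposed to Riccardin D (RD), as the probe sets whose only gene symbol is ABC followed by a letter from A to G and a number. This rule found 96 probe sets of 42 genes, among 41091 probe sets of 19775 genes that the platform annotation pairs with a single gene. PC-3 is an androgen-independent line of human prostate cancer cells. RD, a bisbibenzyl of liverworts, was given for 24 h at 10 µmol/L to the cells of the first group, and the second group was control cells, with 1 Affymetrix expression array per group. The dose comes from a legend and not from the sample labels, and the control is taken to have received DMSO because the treatment protocol says so, although its source name calls it untreated.

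ABC proteins bind and hydrolyse ATP with a conserved nucleotide-binding domain. Most of them use this energy to carry lipids, drugs, conjugates, peptides or haem precursors across a membrane. Most members of subfamilies A to D and G are transporters, while subfamilies E and F have no membrane-spanning part and act on ribosomes. In cancer cells the family is best known for drug efflux, through ABCB1 (P-glycoprotein), the ABCC or MRP proteins and ABCG2 (breast cancer resistance protein).

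Array values were MAS5 signals (linear intensities). The overall median signal, 66.9, taken over both arrays, served as a floor under which a signal was too dim to be read as a level. To be called higher or lower, a gene needed a 2-fold or larger difference and a signal at or above this floor on the brighter array. Where the lower signal was under the floor, the difference is bounded as at least N-fold against it. Each gene was represented by its brightest probe set, and differences are on the log2 scale, RD minus control. With 1 array per condition no spread between cultures exists and no test was made. In its place, the scatter of log2 differences within genes with several probe sets was taken over all genes, as an SD. It was 0.76 where at least 1 signal reached the floor, 0.43 where both did, and 0.29 where both reached the 75th percentile of 377.4. This scatter does not cover differences between cultures.

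The arrays had median signals of 67.8 for RD-treated cells and 65.9 for control cells over 54613 probe sets. Of the epithelial and PC-3 markers listed, KRT18, VIM and CD44 were above 377.4 on both arrays, and EPCAM, CDH1 and KRT19 were under the floor on both. KRT8 lay between, at 159.3 in RD-treated cells and 113.8 in control cells. All 4 leukocyte and all 4 hepatocyte markers measured were under the floor on both arrays, at no more than 43.4 and 59.7 in RD-treated cells and 34.5 and 66.3 in control cells. Of the fibroblast and endothelial markers, 2 of 5 and 1 of 4 reached the floor. CAV1, also on the PC-3 list, was called lower, at 4578.2 in RD-treated cells and 21771.9 in control cells. Of 5 prostate luminal markers expected to be low in PC-3 cells, KLK3, which encodes prostate-specific antigen, gave 230.6 in RD-treated cells and 131.4 in control cells. The other 4 had lower signals in RD-treated cells. KLK2, TMPRSS2 and ACP3 were under the floor on both arrays, and FOLH1, at 4.8 in RD-treated cells and 67.1 in control cells, was called lower with a control signal just at the floor.

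Only a gene that reached the floor could be called. Under it on both arrays were 19 of the 42 members and 6957 of all 19775 genes. Of the 42 genes, none was called higher and 3 were called lower, namely ABCC4, ABCB8 and ABCG8, which is 7.14% of the family. Over all 19775 genes, 7.84% were called higher, 8.63% lower and 16.5% either. Of these 3, only ABCC4, which encodes the exporter MRP4, was called lower by several probe sets. ABCB8 lay exactly on the threshold, and its other probe set had the higher signal in RD-treated cells. ABCG8 had an RD signal under the floor and is bounded only as at least 1.14-fold lower. In the other direction, ABCD4, ABCG2 and ABCB6 had signals 1.74-fold to 1.80-fold higher in RD-treated cells, short of the rule.

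Of the 42 genes, 23 reached the floor on 1 or both arrays and 19 on neither. The 23 genes had a median log2 difference of 0.03, against -0.0022 over the 12818 genes that reached the floor, and 12 of them had a higher and 11 a lower signal in RD-treated cells. Over all 42 members, dim ones included, the median was -0.01, and it was -0.0071 over all 19775 genes. Sizes of difference, without sign, had a median of 0.31 over the 20 members with both signals at the floor, against 0.47 over 10782 genes. Over the 11 members that reached 377.4 on both arrays it was 0.23, against 0.45 over 7050 genes. Of the 23 members at the floor 3 were called lower and none higher, where 12.1% of all such genes were called higher, 13.3% lower and 25.4% either. Of the 20 members at the floor on both arrays, 2 were called lower and none higher, where 8.67% of all such genes were called higher, 9.59% lower and 18.3% either. Of the 11 brightest members 1 was called, lower, where 7.96% of all such genes were called higher, 8.45% lower and 16.4% either. These figures describe the 2 arrays, and the members were not tested against other genes.

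**Figure D1:**
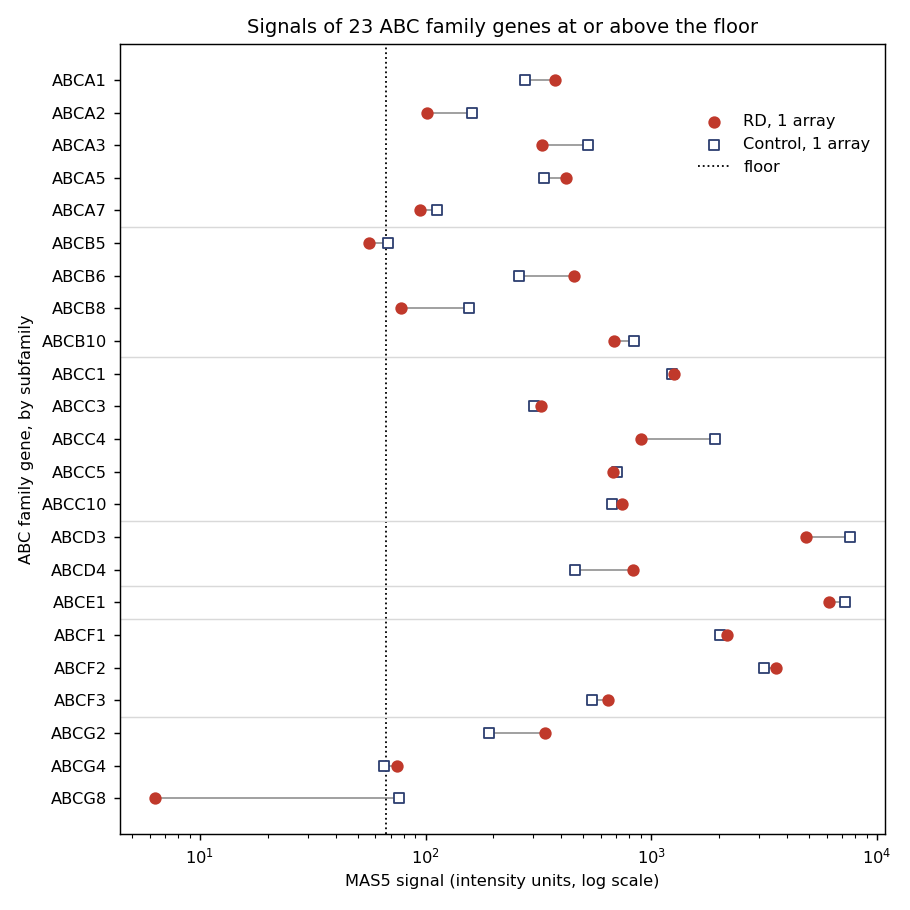
MAS5 signal (log scale) of each of the 23 ABC genes at or above the floor, in RD-treated cells (red circles) and control cells (open squares), joined by a line, with grey lines between subfamilies. Most pairs lie close together, ABCC4 and ABCB8 are lower in RD-treated cells, and ABCG8 has an RD signal of 6.3, far under the floor of 66.9 (dotted). Signals of different genes are not comparable with each other.

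**Figure D2:**
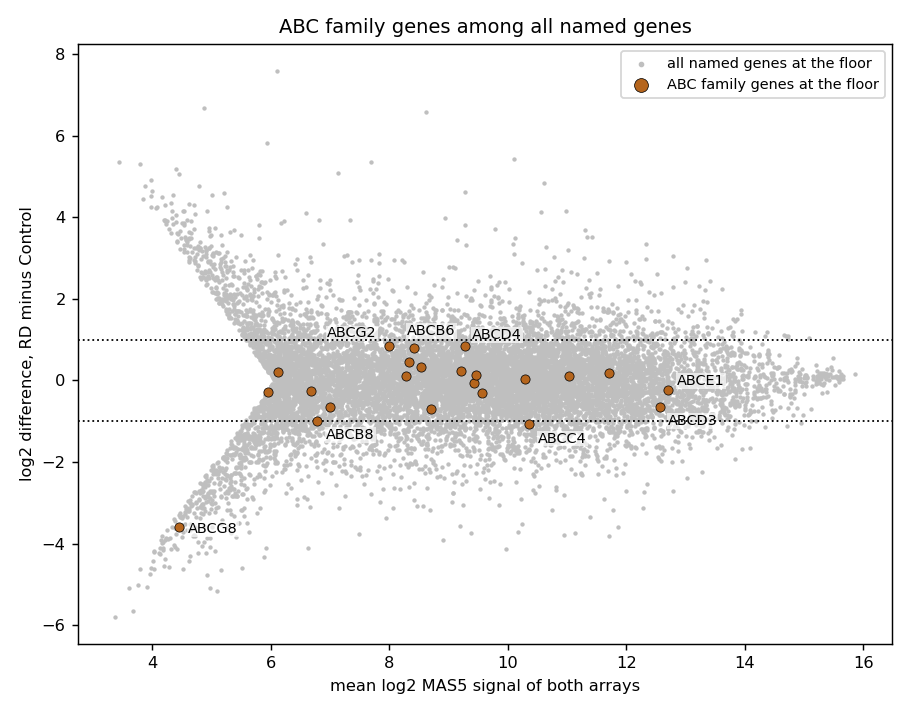
Log2 difference (RD minus control, vertical) against the mean log2 signal of both arrays (horizontal) for the 12818 named genes that reached the floor (grey), with the 23 ABC genes in brown. Dotted lines mark 2-fold, and the ABC genes lie between them except ABCC4, ABCB8 (on the line) and ABCG8, whose difference comes from a dim signal.

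Promoter sequences are shown for ABCC4 and for ABCB6 and ABCD4, which had among the largest differences in each direction by probe sets that reached the floor on both arrays, and which have 1 listed transcription start each. They were chosen after their values were seen. Each line gives the 250 bases before the start, from RefSeq, 5′ to 3′ on the gene's strand, with motif matches in capitals.
ABCC4 (GRCh38.p14, chr13:95301452-95301701, minus strand): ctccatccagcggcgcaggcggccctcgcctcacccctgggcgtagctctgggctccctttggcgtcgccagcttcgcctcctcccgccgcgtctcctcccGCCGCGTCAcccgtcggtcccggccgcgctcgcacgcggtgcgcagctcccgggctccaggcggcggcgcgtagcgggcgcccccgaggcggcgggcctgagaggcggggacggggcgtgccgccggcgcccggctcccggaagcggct
ABCB6 (GRCh38.p14, chr2:219218959-219219208, minus strand): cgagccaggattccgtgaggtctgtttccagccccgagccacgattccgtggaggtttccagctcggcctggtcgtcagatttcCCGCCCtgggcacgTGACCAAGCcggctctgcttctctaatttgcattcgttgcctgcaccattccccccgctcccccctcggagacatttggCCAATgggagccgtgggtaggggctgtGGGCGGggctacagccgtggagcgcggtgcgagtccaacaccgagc
ABCD4 (GRCh38.p14, chr14:74302935-74303184, minus strand): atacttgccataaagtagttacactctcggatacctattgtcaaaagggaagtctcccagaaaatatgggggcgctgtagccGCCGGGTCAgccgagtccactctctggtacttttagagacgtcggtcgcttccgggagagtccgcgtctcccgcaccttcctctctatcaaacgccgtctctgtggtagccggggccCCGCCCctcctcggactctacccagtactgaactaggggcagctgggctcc
Motifs were searched on both strands. The CCAAT box was searched by these letters. The GC box was searched as GGGCGG and the TATA box by the letters TATAAA. The core of the antioxidant response element was searched as TGANNNNGC. The core of the C/EBP-ATF element was searched as TGATGNAA. The ABCC4 window had 1 antioxidant response element core and no other match. The ABCB6 window had 1 such core, 1 CCAAT box and 2 GC boxes, and the ABCD4 window had 1 core and 1 GC box. No matches overlapped. The antioxidant response element core occurred in 35.2% of all 35116 listed promoter windows and in 20 of the 49 windows (40.8%) of the 33 family genes matched. Some genes have several windows, and these 20 belonged to 16 genes. A GC box was present in 42.6% of all windows and in 51% of those of the family, a CCAAT box in 32% and 20.4%, a TATA box in 10.7% and 10.2%, and the C/EBP-ATF core in 3.14% and 2.04%. A match is a stretch of letters and not a known binding site.

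The ABCC subfamily, which holds the MRP exporters of conjugated and anionic compounds, had 5 of 11 genes at the floor. ABCC4 exports cyclic nucleotides, prostaglandins and nucleotide analogues, and its promoter is printed above. Its brightest probe set gave 904.2 in RD-treated cells and 1909.7 in control cells, which is 2.11-fold lower, a log2 difference of -1.08. A further probe set gave 208.5 in RD-treated cells and 598.2 in control cells (2.87-fold lower). The third probe set gave 195.9 in RD-treated cells and 403.1 in control cells (2.06-fold lower). RD-treated cells thus gave the lower signal in all 3 probe sets, and each difference was larger than the scatter between probe sets of a gene. The remaining probe set of ABCC4 was under the floor on both arrays, at 4.6 in RD-treated cells and 20.2 in control cells.

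The other MRP genes at the floor were close to their control signals by their brightest probe sets. ABCC1 (MRP1), a broad exporter of glutathione conjugates and drugs, gave 1261.6 in RD-treated cells and 1237.3 in control cells, and its other probe set 285 and 261.9 in the same order. These are 1.02-fold and 1.09-fold differences, both within the scatter. ABCC10 (MRP7), which can carry taxanes, gave 741.1 in RD-treated cells and 673.7 in control cells (1.10-fold), and its other probe set differed by 1.06-fold. ABCC1 and ABCC10 were thus alike by every probe set.

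ABCC3 and ABCC5 depended on the probe set. ABCC5 (MRP5) is an exporter of cyclic nucleotides. Its brightest probe set gave 680.2 in RD-treated cells and 706.9 in control cells. A dimmer one gave 130.2 in RD-treated cells and 284 in control cells (2.18-fold lower), and another gave 177.4 in RD-treated cells and 100.9 in control cells (1.76-fold higher). These 3 probe sets do not share a direction, and ABCC5 was called lower when only probe sets without a shared-sequence suffix were used. ABCC3 (MRP3), an exporter of glucuronides and bile salts, gave 323.7 in RD-treated cells and 302.2 in control cells by its brightest probe set. Its second one gave 83 in RD-treated cells and 164.6 in control cells (1.98-fold lower). Another gave 77.5 in RD-treated cells against 11.7 in control cells, which is at least 1.16-fold higher against the floor. Its last 2 probe sets were under the floor on both arrays, so ABCC3 as a whole had no direction.

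The other 6 genes of the subfamily were under the floor on both arrays. ABCC2 (MRP2), the exporter of conjugates into bile, gave 10.5 in RD-treated cells and 2.6 in control cells. ABCC11 (MRP8), which is active in apocrine glands, gave 64.4 in RD-treated cells and 49.8 in control cells. ABCC12 gave 11.5 in RD-treated cells and 58.7 in control cells by 1 probe set and 11 in RD-treated cells and 3.3 in control cells by the other, opposite ways at dim signals. ABCC8 and ABCC9, the sulphonylurea receptors of potassium channels, and ABCC13, a transcribed pseudogene in RefSeq, were the remaining 3.

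**Figure D3:**
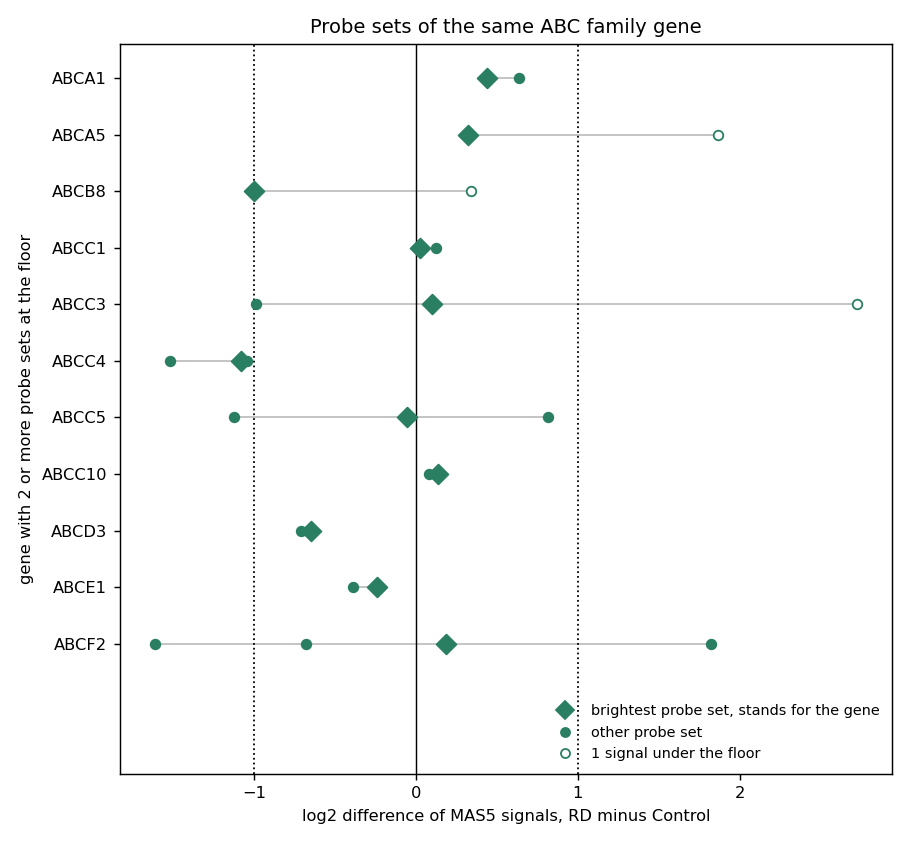
Log2 difference (RD minus control, horizontal) of every probe set at the floor, for the 11 ABC genes with 2 or more such probe sets. Diamonds mark each gene's brightest probe set, open circles have 1 signal under the floor, and dotted lines mark 2-fold. The 3 probe sets of ABCC4 lie together beyond -1, while those of ABCF2, ABCC3, ABCC5 and ABCB8 lie on both sides of 0.

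The gene list set beside the MRP exporters held the synthesis and conjugation of glutathione, which several of them carry. Of its 19 genes, 4 were called higher and 5 lower in RD-treated cells, with a median log2 difference of -0.47 over the 18 at the floor. Over all 19775 genes, 16.5% were called either way, and 25.4% of those at the floor. All partner lists together held 139 measured genes, of which 12 were called higher and 14 lower. The lists were not tested against other genes. GCLM and GCLC, the subunits of the enzyme that limits glutathione synthesis, were 5.40-fold and 4.38-fold higher, and SLC7A11, the cystine importer, was 3.78-fold higher. GCLM gave 25204.8 in RD-treated cells and 4669 in control cells. At the other end were 3 genes of glutathione transfer or synthesis. GSTA4 was at least 2.22-fold lower, GSTP1 was 2.31-fold lower and GSS, the glutathione synthetase, was 2.30-fold lower.

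ABCB1 encodes P-glycoprotein, the efflux pump of many anticancer drugs. Its signals did not reach the floor on either array. The brighter of its probe sets gave 36.7 in RD-treated cells and 28.5 in control cells, and the other gave 28.1 in RD-treated cells and 5.1 in control cells. A probe set shared by ABCB1 and ABCB4, which was not used for either gene, gave 47.7 in RD-treated cells and 2.1 in control cells. All 3 had the higher signal in RD-treated cells, but both signals were under the floor in each, so no direction or fold is read. The probe sets of ABCB4 alone, also under the floor, had lower signals in RD-treated cells.

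ABCG2 was read by 1 probe set. It gave 338.9 in RD-treated cells and 190.2 in control cells, which is 1.78-fold higher, a log2 difference of 0.83. This is short of 2-fold, and it is larger than the scatter of 0.43 over all genes with both signals at the floor. The same scatter over ABC genes alone was 0.81, close to the ABCG2 difference. Of the drug efflux genes, ABCC1 and ABCC10 were thus alike in both conditions, ABCC4 was lower and ABCG2 was higher without reaching 2-fold. ABCC3 and ABCC5 had probe sets in both directions. ABCB1, ABCC2, ABCC11, ABCC12 and ABCB11 were not read above the floor.

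Genes of drug sensing and metabolism and of drug uptake showed no common direction. Of 17 sensors and enzymes measured, 2 were called higher and 1 lower. Called either way were 16.5% of all genes and 25.4% of those at the floor. The median of these sensors and enzymes was -0.07 over the 12 at the floor. PPARA, a nuclear receptor of fatty acids, was 2.61-fold higher, NFE2L2, which encodes the regulator NRF2, was 2.31-fold higher, and CYP1A1, a target of the aryl hydrocarbon receptor, was 2.13-fold lower. Of 14 uptake transporters, only 6 reached the floor. SLC29A1, the equilibrative nucleoside transporter, gave 231.3 in RD-treated cells and 1290.6 in control cells (5.58-fold lower). SLCO2B1 gave 68.1 in RD-treated cells and 34 in control cells, at least 1.02-fold higher, and the median of the 6 was 0.09.

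Of the ABCB genes, 4 of 8 reached the floor. ABCB8, a transporter of the mitochondrial inner membrane, gave 77.8 in RD-treated cells and 155.6 in control cells. The ratio is 2-fold to the last printed digit, so the call lies exactly on the threshold. Its other probe set went the opposite way, with 83.9 in RD-treated cells and 66.2 in control cells, at least 1.25-fold higher. The lower call of ABCB8 thus rests on a single probe set.

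ABCB6, which can carry porphyrins, gave 453.2 in RD-treated cells and 259.8 in control cells (1.74-fold higher). Its other probe set was under the floor on both arrays, at 5.4 in RD-treated cells and 3.9 in control cells. ABCB10, which acts in mitochondria and is needed for haem synthesis in mouse erythroid cells, gave 683.5 in RD-treated cells and 843.2 in control cells (1.23-fold lower). These genes of haem and mitochondria did not move one way. ABCB5, a marker of corneal stem cells and melanoma cells, gave 55.9 in RD-treated cells and 68.2 in control cells, on either side of the floor. ABCB11, the bile salt export pump of liver, was under the floor at 22.9 in RD-treated cells and 7.8 in control cells. ABCB4, which exports phospholipid into bile, and ABCB9, a lysosomal peptide transporter, were also under the floor.

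Partner lists were set beside these genes. Of 19 genes of mitochondrial iron-sulphur and haem synthesis measured, all at the floor, 2 were called higher and 2 lower. Called either way were 16.5% of all genes and 25.4% of those at the floor. The median of these 19 genes was 0.06. HSPA9, the mitochondrial HSP70, was 2.16-fold higher and SLC25A38, the glycine importer for haem synthesis, 2.13-fold higher. ISCA2 was 2.25-fold lower and NFS1, the cysteine desulphurase, 2.00-fold lower. TAP1 and TAP2 are ABC proteins too, which carry peptides to MHC class I but lie outside the symbol rule. TAP1 gave 585.9 in RD-treated cells and 536.5 in control cells, and TAP2 gave 622.4 in RD-treated cells and 866.4 in control cells. CFTR, the ABC chloride channel, was under the floor at 20.4 in RD-treated cells and 25.9 in control cells, so of these 3 genes none was called, and the median of the TAP genes was -0.18. Of the 15 peptide loading genes, TAP genes included and all at the floor, none was called higher and 2 lower, beside the same 16.5% and 25.4%. Their median was 0.13. TAPBP (tapasin) was 2.86-fold lower and PSMB9, an immunoproteasome subunit, was 3.11-fold lower.

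The ABCA subfamily, which moves lipids, had 5 of 11 genes at the floor, and none was called. ABCA1, which exports cholesterol and phospholipid to apolipoprotein A-I, gave 376.3 in RD-treated cells and 277.2 in control cells (1.36-fold higher). Its second probe set gave 296.7 in RD-treated cells and 191 in control cells (1.55-fold higher). Both were higher in RD-treated cells, by less than 2-fold, and the other 2 probe sets of ABCA1 were under the floor with a lower signal in RD-treated cells. ABCA3, which loads phospholipid into lamellar bodies of the lung, gave 326.7 in RD-treated cells and 527.5 in control cells (1.61-fold lower). ABCA2, a lysosomal transporter best known in brain, gave 101.4 in RD-treated cells and 160 in control cells (1.58-fold lower). ABCA7, a close relative of ABCA1, gave 94.1 in RD-treated cells and 112.9 in control cells.

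ABCA5, an endosomal and lysosomal member, gave 417.4 in RD-treated cells and 333.3 in control cells (1.25-fold higher). Its other probe set gave 104.7 in RD-treated cells against 28.7 in control cells, at least 1.57-fold higher against the floor, so both had a higher signal. On chromosome 17, the genes ABCA6, ABCA8 and ABCA9 lie next to each other, and all their probe sets were under the floor. The other ABCA genes under the floor were ABCA4 of the retina, ABCA12 of the skin, and ABCA13.

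ABCG1, which exports cholesterol to high-density lipoprotein, had 4 probe sets and all were under the floor on both arrays. ABCG5 and ABCG8 form the sterol exporter of liver and gut, and they are neighbours on chromosome 2. ABCG8 gave 6.3 in RD-treated cells and 76.3 in control cells. Its control signal was just above the floor, so the difference is bounded only as at least 1.14-fold lower, below the 2-fold rule. ABCG5 was under the floor on both arrays, at 37.4 in RD-treated cells and 34 in control cells. ABCG4, a sterol transporter of brain, gave 74.9 in RD-treated cells and 65.2 in control cells.

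Of 18 sterol-linked partners of ABCA1 and ABCG1, 2 were called higher and 3 lower. Called either way were 16.5% of all genes and 25.4% of those at the floor. The median of these partners was -0.01 over the 14 at the floor. LPCAT3, a phospholipid-remodelling target of the liver X receptors, was 2.83-fold higher, with 660.8 in RD-treated cells and 233.9 in control cells. APOE, a lipid acceptor and also a target of these receptors, was 2.61-fold higher. NPC2, which binds cholesterol in lysosomes, was 2.41-fold lower, INSIG1, an anchor of the sterol sensor, was 2.26-fold lower and SREBF1, a regulator of lipid synthesis, was 2.18-fold lower.

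ABCD proteins carry fatty acids into peroxisomes, except ABCD4, which acts in lysosomal cobalamin export. ABCD3 (PMP70) gave 4870.2 in RD-treated cells and 7643.8 in control cells (1.57-fold lower). Its other probe set gave 1010 in RD-treated cells and 1651.5 in control cells (1.64-fold lower). Both differences exceeded the scatter of 0.29 over all genes, but not the 0.81 over ABC genes with both signals at the floor. Neither reached 2-fold. ABCD4 gave 829.4 in RD-treated cells and 461.4 in control cells (1.80-fold higher), the nearest to 2-fold among the family genes at the floor that were not called. Its second probe set was under the floor, with 15.3 in RD-treated cells and 55 in control cells. ABCD2 was under the floor. Of 18 genes of peroxisome biogenesis and beta-oxidation measured, none was called, beside 16.5% of all genes and 25.4% of those at the floor. The median of the peroxisome list was -0.22 over 17 genes.

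ABCE1 and the ABCF proteins act in translation. ABCE1, which splits ribosomes after termination, gave 6140.1 in RD-treated cells and 7257.9 in control cells (1.18-fold lower). Its other probe set gave 2263.2 in RD-treated cells and 2957.1 in control cells (1.31-fold lower). The first difference was within the scatter of 0.29 and the second, at -0.39 on the log2 scale, was larger. ABCF1, which binds initiation factor eIF2, gave 2161 in RD-treated cells and 2020.3 in control cells (1.07-fold higher). ABCF3 gave 640.9 in RD-treated cells and 545.6 in control cells (1.17-fold higher). Neither ABCF1 nor ABCF3 differed by more than the scatter.

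ABCF2 had 5 probe sets, which did not share a direction. The brightest gave 3588.9 in RD-treated cells and 3158 in control cells, and the next gave 3435.5 in RD-treated cells and 3034 in control cells, which is 1.14-fold and 1.13-fold higher. The third gave 441.2 in RD-treated cells and 706.1 in control cells (1.60-fold lower). Of the last pair, 1 gave 83.6 in RD-treated cells and 255.6 in control cells (3.06-fold lower), and 1 gave 247.1 in RD-treated cells and 69.7 in control cells (3.55-fold higher). Among the 5444 genes with several probe sets at the floor on both arrays, ABCF2 was 1 of 8 in which such probe sets passed 2-fold in opposite directions. In RefSeq, ABCF2 overlaps the readthrough gene ABCF2-H2BK1, and which transcripts its dimmer probe sets read was not tested. Of 18 genes of ribosome recycling, termination and the GCN pathway, 1 was called higher and none lower. Called either way were 16.5% of all genes and 25.4% of those at the floor. The median of this list was 0.21 over 17 genes. The called gene was PELO, the ribosome rescue factor that acts with ABCE1, at 12861.7 in RD-treated cells and 2912.2 in control cells (4.42-fold higher).

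Counted by probe sets, 3 of 96 were called higher and 7 lower, against 8.14% and 7.99% of all 41091, or 16.1% either way. All 10 were among the 40 probe sets at the floor, where 13.4% of all such probe sets were called higher, 13.2% lower and 26.6% either. The 3 higher ones belonged to ABCF2, ABCC3 and ABCA5, and the 7 lower ones to ABCC4 (3), ABCB8, ABCC5, ABCF2 and ABCG8. Probe sets of a gene read the same RNA and are not replicates. The SD between probe sets with both signals at the floor was 0.81 over 23 probe sets of 9 ABC genes, against 0.43 over all genes, and 29 of the 42 genes had more than 1 probe set. Over the 19 genes under the floor on both arrays, signals were 2 to 64.4 in RD-treated cells (median 22.9) and 2.6 to 58.7 in control cells (median 28.4).

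**Figure D4:**
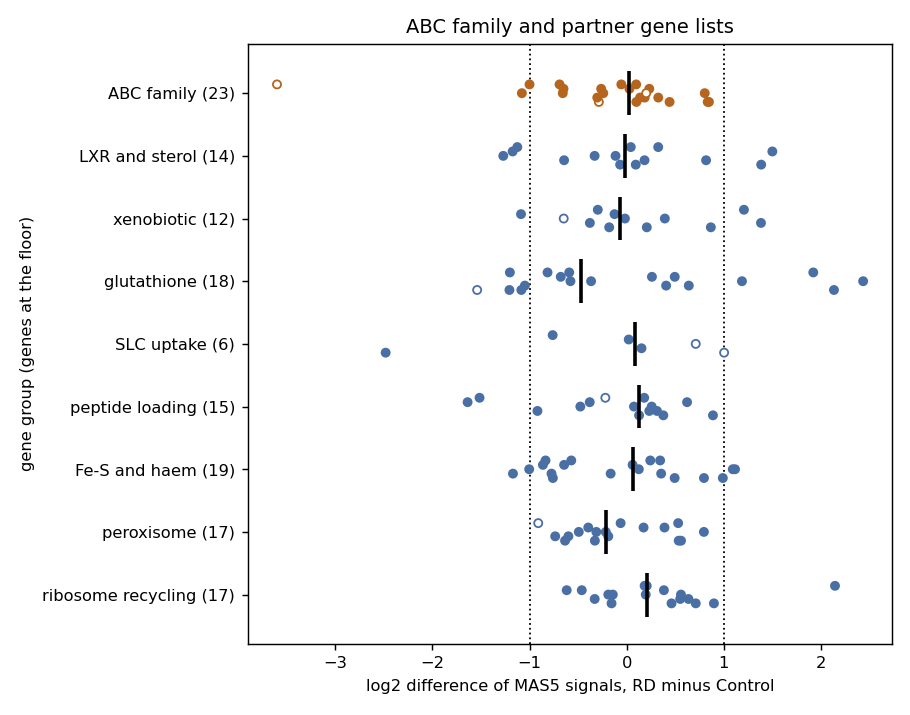
Log2 difference (RD minus control, horizontal) of the ABC genes (brown) and of the genes of 8 partner lists (blue) that reached the floor, with the number of genes in brackets. Medians are drawn as black bars and 2-fold as dotted lines, and an open circle has 1 signal under the floor. The median of the ABC genes is 0.03, the glutathione list has called genes in both directions, and ABCG8 is the open circle farthest to the left.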

How the data were processed

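Total RNA from RD-treated and control PC-3 cells was hybridised to 1 Affymetrix array each. The authors deposited linear intensities, which are MAS5 signals per the labels, background and mismatch corrected and scaled per array. No source used here gives a MAS5 version. Trimmed means (2% at each end) were 495.9 (RD) and 495.8 (control). Detection calls were not used here. Log2 differences were computed without offset or further scaling. Genes were named from the platform annotation, which RefSeq (GRCh38.p14) changed in 0 cases. Probe sets of several genes (1801) and unnamed ones (11721) were left out. All members at the floor, all called members and the drug efflux members were described in full, and up to 3 called genes at each end of a list were named. The members and lists were chosen with earlier results of these data known. The alternatives were 11 settings of normalization, offset, representative probe set, floor and threshold, and their application to the lists was added after seeing the data. The scripts were tested on simulated data. Analyses ran in Python 3.11.15 with pandas 2.3.3 and numpy 2.4.6, and plots were drawn with matplotlib 3.10.9. No p-value was computed. The number of arrays limits the precision.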

Additional observations from a re-analysis of the deposited data

How the results depend on the processing

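No member was called higher under 8 of the 11 alternatives. The exceptions were taking a gene's median over its probe sets (1 gene, ABCA5), no floor (4 genes, all under the floor on both arrays) and a threshold of 1.5-fold (3 genes, ABCB6, ABCD4 and ABCG2). The lower calls, 3 as reported, were 8 without a floor, 1 with the floor at the 75th percentile (ABCC4), 6 at 1.5-fold, 1 at 3-fold (ABCG8) and 2 to 4 in the other settings, with ABCC5 the fourth when probe sets with a shared-sequence suffix were left out. ABCB8 lost its call with the offset of 17.1 and with the median over probe sets (-0.33), and ABCG8 when dim signals were raised to the floor (-0.19) and when both signals had to reach the floor. ABCC4 kept its call in every setting except 3-fold. The median of members at the floor was -0.29 with probe sets without a shared-sequence suffix (15 genes), and between -0.01 and 0.08 in the other settings. Probe sets called higher, 3 as reported and in the settings not listed here, were 18 without a floor, 0 with the floor at the 75th percentile, 1 when both signals had to reach the floor, 1 with signals raised to the floor and 8 at 1.5-fold. Probe sets called lower, 7 as reported, were 26 without a floor, 3 with the floor at the 75th percentile, 13 at 1.5-fold, 2 at 3-fold and 5 to 8 in the other settings that apply to probe sets. Called genes of the partner lists, 26 as reported, were 55 at 1.5-fold, 6 at 3-fold and 21 to 38 in the other settings, all of them chosen for the lists after seeing the data. Of 240 values of 28 named genes, 228 moved by less than the scatter between probe sets, and no called gene changed sign. Many of these values could not move. Settings that only removed or raised the floor, or asked both signals to reach it, changed calls and not differences. Raising dim signals could not move a gene with both signals at the floor. The cause of the changes across settings was not tested beyond what each setting does by construction. No paired analysis was possible because each condition had 1 array.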

Other observations

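Of 3 ABC pseudogene symbols outside the naming rule, ABCA11P gave 562.8 in RD-treated cells and 265.4 in control cells, which is 2.12-fold higher (log2 difference 1.08). In RefSeq this transcribed pseudogene on chromosome 4 overlaps ZNF721, and which of these transcripts the probe set read was not tested. ABCA17P gave 66.3 in RD-treated cells and 58.2 in control cells, and ABCC6P1 gave 1.8 and 5.4 in the same order, both under the floor. A probe set shared by ABCB8 and ASIC3 was also under the floor, with 31.7 in RD-treated cells and 33.3 in control cells.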
